A study of Mus musculus with 6 samples.

Results

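A group of 10 marker genes of proprioceptors and myelinated mechanoreceptors was followed in mouse dorsal root ganglia, the clusters of sensory neuron cell bodies beside the spinal cord. The genes were taken by symbol from the deposited table, where all 10 were found among 16613 genes. They are Pvalb, Spp1, Runx3, Etv1, Cntnap2, Necab2, Calb1, Whrn, Heg1 and Esrrg, and all 10 passed the filter on low counts that kept 15043 genes for testing. The control group had the genotype Kif2a fl/fl, in which both copies of the kinesin gene Kif2a are flanked by loxP sites. The knockout group had the genotype Kif2a fl/fl; Avil cre, in which Cre recombinase is expressed from Avil, which sensory neurons transcribe. Both groups were 6 months old, each had 3 libraries numbered 1 to 3, and no group with Cre and unfloxed Kif2a was analysed here. The series asks how Kif2a in sensory neurons bears on nociception, and these genes mark the neurons that serve touch and body position.

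Proprioceptors carry signals from muscle spindles and tendon organs and have large cell bodies and thick myelinated axons. They depend on neurotrophin-3 acting on its receptor TrkC, and the transcription factors Runx3 and Etv1 are known for their identity and their connections in the spinal cord. Myelinated mechanoreceptors, which end in skin and hair follicles, share part of this gene set, such as calcium-binding proteins and neurofilaments. Whole ganglia were sequenced, so fewer cells of a type and less RNA per cell cannot be told apart.

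The genes lie on 8 chromosomes, with Runx3, Calb1 and Whrn all on chromosome 4 (build mm10, GENCODE M21 annotation). All are protein coding. The summed length of exon positions ran from 1041 bases for Pvalb to 13296 bases for Etv1. Exons of Heg1 overlap those of Gm15657 on the other strand and exons of Spp1 overlap Gm42793 on the same strand, so reads there cannot be assigned with certainty. Promoter windows from RefSeq (build GRCm38.p6, which is mm10) were found for 9 of the 10 genes, 17 windows in all. Since the group holds a RUNX factor, an ETS factor and an estrogen-related receptor, the windows were searched on both strands for the RUNX core TGTGGT, for the ERR element AAGGTCA and for the ETS core CCGGAA. No searched motif overlapped another in the sequences printed. The RUNX core was in 3 of the 17 windows (Runx3, Spp1 and Etv1) and in 16.8% of all 32851 windows. The ETS core was in 2 of the 17 (Spp1 and Pvalb) against 14.9% of all, and the ERR element was in 0 of the 17 against 4.72% of all.

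The upstream 250 bases are shown for Runx3, the gene with the largest fold change of the group, and for Pvalb and Spp1, its most abundant genes per length. Capitals mark matches on either strand, and each sequence runs 5′ to 3′ in the direction of its gene and ends just before the transcript start. The Runx3 window is that of the upstream of its 2 listed starts, at chr4:135120395-135120644 on the plus strand. It holds the RUNX core at positions -134 and -126 from the start, both on the opposite strand. The Spp1 window, at chr5:104434861-104435110 on the plus strand, holds the ETS core at -233 and the RUNX core at -128, both on the opposite strand. The Pvalb window, at chr15:78206401-78206650 on the minus strand, holds the ETS core at -96.
Runx3: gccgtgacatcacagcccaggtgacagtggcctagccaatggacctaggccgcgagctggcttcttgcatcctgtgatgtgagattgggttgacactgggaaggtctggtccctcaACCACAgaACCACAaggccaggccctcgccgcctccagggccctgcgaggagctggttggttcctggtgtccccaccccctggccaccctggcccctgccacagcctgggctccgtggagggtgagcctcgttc
Spp1: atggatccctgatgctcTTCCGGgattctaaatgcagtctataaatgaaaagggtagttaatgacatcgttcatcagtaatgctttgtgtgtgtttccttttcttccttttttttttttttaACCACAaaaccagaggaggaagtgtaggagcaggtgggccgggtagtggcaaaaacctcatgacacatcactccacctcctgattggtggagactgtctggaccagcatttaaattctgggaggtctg
Pvalb: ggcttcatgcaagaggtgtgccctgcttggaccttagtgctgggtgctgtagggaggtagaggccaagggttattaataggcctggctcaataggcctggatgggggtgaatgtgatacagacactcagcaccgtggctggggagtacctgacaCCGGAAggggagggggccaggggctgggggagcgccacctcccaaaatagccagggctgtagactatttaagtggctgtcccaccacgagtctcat
These letters describe the sequence and do not show that a factor binds.

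Library totals ran from 16090726 to 19221415 counts. A count of 3 equals 0.159 to 0.185 CPM (read counts relative to library size, adjusted by the trimmed mean of M values), and the lowest count of any of the 10 genes in a library was 80. The 10 listed markers of sensory neurons were all present, with a summed level of 10740 to 11310 CPM in the controls and 11150 to 12440 CPM in the knockouts. Kif2a was at 97.4 ± 7.17 CPM (SD, n = 3) in the controls and 88.3 ± 2.45 CPM in the knockouts. It did not pass in edgeR without the block described next (adjusted p = 0.957) or with it (0.284). Its groups did not overlap, with the knockout lower (6.12% of all tested genes). It was lower in all 3 same-numbered pairs (20.6% of all). Avil, which carries the Cre in the knockout, was at 1050.0 ± 46.0 and 469.4 ± 42.2 CPM (SD, n = 3). It fell by 1.16 on the log2 scale with the block (SE 0.07, edgeR adjusted p = 2.39e-05), and did not pass without the block (edgeR adjusted p = 0.0840). Exons of Kif2a overlap Dimt1 and those of Avil overlap Tsfm. Counts over the whole of Kif2a include reads outside its floxed part, and whole ganglia also hold cells other than sensory neurons. The share of either in the Kif2a level was not tested. These counts alone do not establish the loss of Kif2a. Control library 2 stood apart. The summed level of 14 skeletal muscle markers was 1888 CPM there, against 13.8 and 47.3 CPM in the other controls and 12.4 to 82.2 CPM in the knockouts, and all 14 were highest in that library. Fold changes without that library are given beside those with it.

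In the edgeR quasi-likelihood fit with group as its only term, 0 of the 10 genes differed between knockout and control at an adjusted p of 0.05. In that fit 0 of 15043 tested genes passed, a share of 0%, while 825 genes (5.48%) had an unadjusted p under 0.05, none of them among the 10. DESeq2 without a block called 0 of the 10 and 65 of all genes (0.433%). Deviations of same-numbered libraries from their group means correlated at 0.53, 0.30 and 0.17 for numbers 1 to 3. Those of control 2 and knockout 3 correlated at 0.14, so pair 3 is the least certain. This pairing was inferred from these same data, and the replicate number was added as a block in a further fit. The blocked fit called 542 genes (3.6%), with 187 above (1.24%) and 355 below (2.36%) their control level. In that fit 1 of the 10 passed, Runx3, which was higher, and 0 were lower. With the same block DESeq2 called 423 genes (3.33%) and 0 of the 10. The words "rose" and "fell" are kept for genes past the threshold in the blocked edgeR fit.

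**Figure D1:**
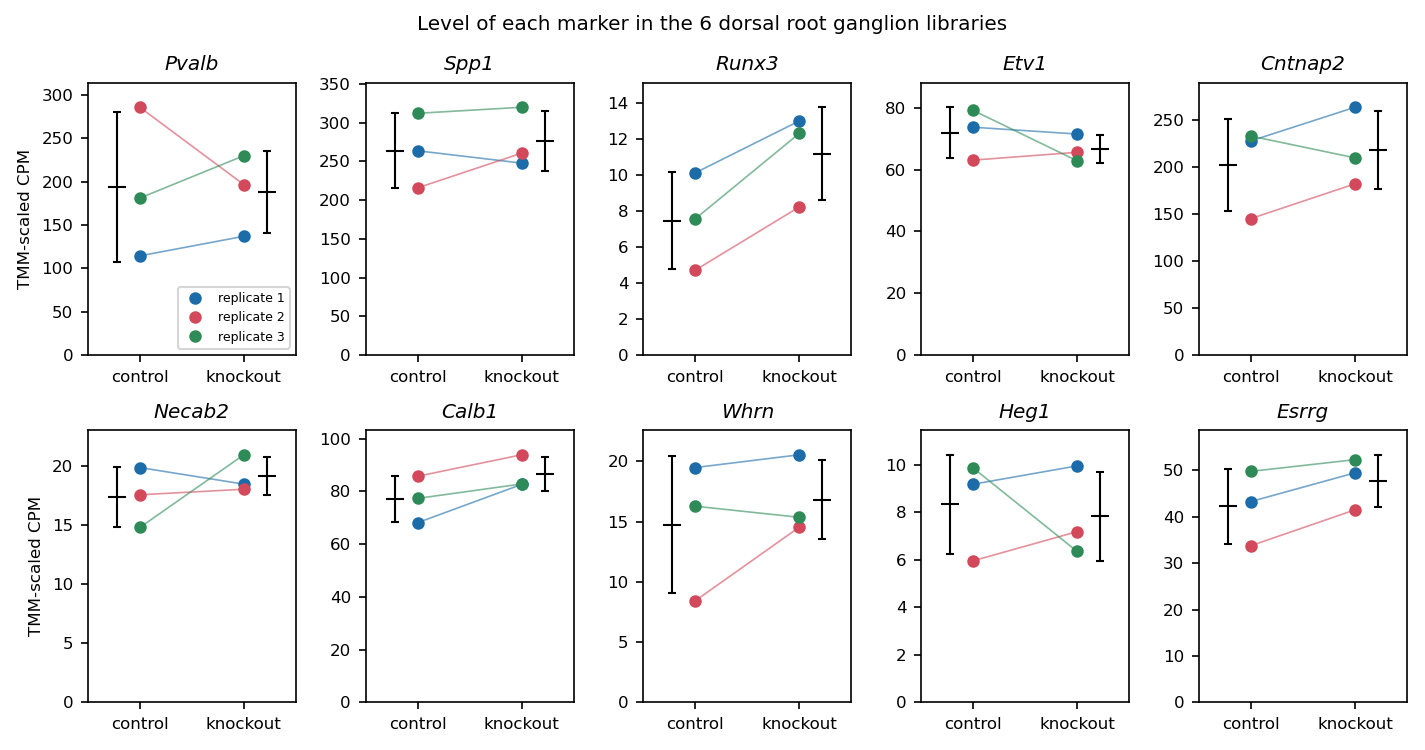
Level of each of the 10 genes (TMM-scaled CPM, axis from 0) in control and knockout libraries. Lines join libraries of the same replicate number, and black bars give the mean ± SD of 3 libraries. Runx3 is higher in the knockout in all 3 pairs, and control library 2 has the highest Pvalb, 285.8 CPM, and the lowest Runx3, 4.72 CPM.

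Runx3 encodes a Runt-family transcription factor that proprioceptors need. Its level was 10.1, 4.72 and 7.58 CPM across controls 1 to 3, against 13.03, 8.24 and 12.3 CPM across knockouts 1 to 3. Knockout replicate 2 was below control replicate 1, so the groups overlapped, while each knockout library was above the control library of its own number. Averaged over 3 libraries, knockout reached 149.7% of control. Without the block the log2 fold change was 0.58 (SE 0.29, adjusted p = 0.916, 95% interval -0.08 to 1.25). With the block Runx3 rose by 0.61 (SE 0.14, adjusted p = 0.04), at a rank of 449 by p among the tested genes. The call was lost in DESeq2 with the block (adjusted p = 0.160) and with any pair left out, where the edgeR adjusted p was 0.104, 0.0583 and 0.0842 without pairs 1, 2 and 3. Without control replicate 2 alone, the log2 fold change was 0.35 in the fit without a block, and it stayed above 0 in all 6 omissions of 1 library, at 0.35 to 0.85. In the authors' deposited table Runx3 had a log2 fold change of 0.58 and a false discovery rate of 0.541.

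Etv1 encodes an ETS-family transcription factor that directs the connections of proprioceptors. Its level was 73.8, 63.1 and 79.2 CPM across controls 1 to 3, against 71.6, 65.6 and 62.9 CPM across knockouts 1 to 3. The groups overlapped and 1 of 3 pairs was higher in the knockout. The log2 fold change was -0.11 (SE 0.12, adjusted p = 0.981 in edgeR), and the 95% interval ran from -0.39 to 0.17. With the block it was -0.11 (SE 0.08, adjusted p = 0.530). It was -0.19 when control replicate 2 was left out.

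Esrrg encodes an orphan nuclear receptor, estrogen-related receptor gamma. It was at 43.3, 33.8 and 49.8 CPM across controls 1 to 3, against 49.5, 41.5 and 52.3 CPM across knockouts 1 to 3. All 3 pairs were higher in the knockout, but the groups overlapped. The log2 fold change was 0.18 (SE 0.16) without the block and 0.19 (SE 0.08) with it, and neither passed (edgeR adjusted p = 0.980 and 0.218). It was 0.04 without control replicate 2. The 3 transcription factor genes thus had fold changes of different sign and size, with a call for Runx3 alone in the blocked edgeR fit. The differences between them were not tested.

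Pvalb encodes parvalbumin, a calcium buffer of proprioceptors that fast skeletal muscle also makes. Its level was 114.3, 285.8 and 181.0 CPM across controls 1 to 3, against 136.9, 196.5 and 229.9 CPM across knockouts 1 to 3. The knockout values lay inside the range of the controls, and the coefficient of variation was 44.6% in the controls and 25.1% in the knockouts, that of the controls being the largest of the 10 genes. The highest level was in control library 2, the library with high muscle markers. The other 5 libraries had muscle sums of 12.4 to 82.2 CPM, against 1888 CPM in control library 2. Among these 5 the order of Pvalb differed from that of the muscle markers. At such low sums this order cannot show what muscle RNA adds in control library 2. The lowest Pvalb levels, in control library 1 and knockout library 1, went with muscle sums of 47.3 and 82.2 CPM, and knockout library 3, the next highest for Pvalb, had a muscle sum of 20.5 CPM. The part of muscle RNA in the Pvalb level of control library 2 was not tested.

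With all libraries the log2 fold change of Pvalb was -0.05 (SE 0.32, edgeR adjusted p = 0.994), with a 95% interval of -0.78 to 0.69. With the block it was 0.02 (SE 0.24, adjusted p = 0.977). Without control replicate 2 the control mean was 147.6 CPM against a knockout mean of 187.7 CPM, and the log2 fold change was 0.35 (edgeR adjusted p = 0.937 without a block). In the blocked edgeR fit without pair 2 it was 0.31 and passed (adjusted p = 0.0268), whereas without pairs 1 and 3 it was -0.11 and -0.15 and did not pass. Both remaining pairs, 1 and 3, were higher in the knockout, with log2 ratios of 0.26 and 0.34, and pair 2 had a ratio of -0.54. Omitting knockout replicate 1 in the fit without a block also turned the sign, to 0.13. The direction of Pvalb thus changed with the library or pair left out, and no stable direction was seen.

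**Figure D2:**
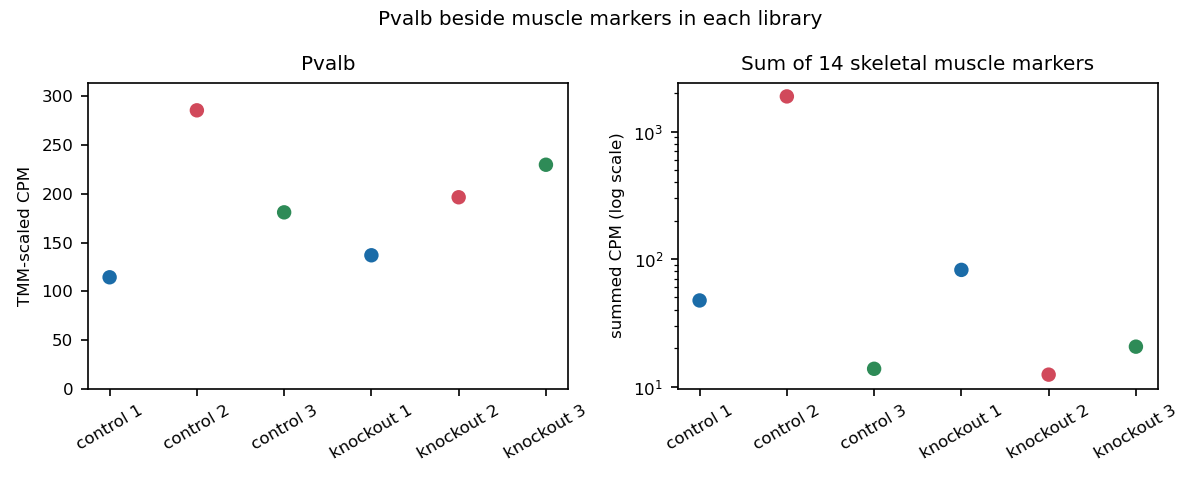
Pvalb (left, TMM-scaled CPM, axis from 0) and the sum of 14 skeletal muscle markers (right, CPM, log axis) in each of the 6 libraries, coloured by replicate number. Control library 2 is highest in both, at 285.8 and 1888 CPM. The order of the other 5 libraries differs between the panels.

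Calb1 encodes calbindin, another calcium buffer, and is used as a marker of myelinated touch afferents. It was at 68.2, 85.8 and 77.4 CPM across controls 1 to 3, against 82.7, 93.9 and 82.8 CPM across knockouts 1 to 3. All 3 pairs were higher in the knockout, and only control replicate 2 reached into the knockout range. The log2 fold change was 0.17 (SE 0.12) without the block and 0.17 (SE 0.07) with it, with edgeR adjusted p-values of 0.957 and 0.208. Leaving out control replicate 2 gave 0.26 (adjusted p = 0.937, no block).

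Necab2 encodes a neuronal protein with EF-hand calcium-binding sites. It was at 19.8, 17.5 and 14.8 CPM across controls 1 to 3, against 18.4, 18 and 20.9 CPM across knockouts 1 to 3, so the groups overlapped. Necab2 had a log2 fold change of 0.14 (SE 0.15, edgeR adjusted p = 0.981), with a 95% interval of -0.20 to 0.47. It was 0.15 without control replicate 2. Pair 3 had the largest ratio, 0.50 on the log2 scale, and without it the blocked value was -0.03. The 3 calcium-binding protein genes had 0 calls in the blocked edgeR fit of all libraries.

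Cntnap2 encodes Caspr2, an adhesion protein that holds potassium channels beside the nodes of Ranvier of myelinated axons. Its level was 228.1, 145.3 and 233.2 CPM across controls 1 to 3, against 263.9, 182.3 and 210.0 CPM across knockouts 1 to 3. Replicate 2 was the lowest of each group. The log2 fold change was 0.11 (SE 0.21) without the block and 0.13 (SE 0.09) with it, and neither passed (edgeR adjusted p = 0.984 and 0.493). It was -0.07 without control replicate 2. With the block and without pair 3 it was 0.27 and passed (edgeR adjusted p = 0.0220).

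Whrn encodes whirlin, a scaffold protein of hair cells that has also been described in proprioceptors. It was at 19.5, 8.44 and 16.3 CPM across controls 1 to 3, against 20.6, 14.6 and 15.4 CPM across knockouts 1 to 3. Whrn had a log2 fold change of 0.19 (SE 0.29, edgeR adjusted p = 0.984), and 0.24 (SE 0.16, adjusted p = 0.472) with the block. Without control replicate 2, the lowest library, it was -0.08. Pair 2 had a log2 ratio of 0.78, against 0.08 and -0.08 for pairs 1 and 3.

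Spp1 encodes osteopontin, a secreted phosphoprotein of proprioceptors that bone cells and macrophages also make. Its level was 263.7, 215.8 and 312.1 CPM across controls 1 to 3, against 247.8, 260.6 and 319.9 CPM across knockouts 1 to 3. The groups overlapped, with a log2 fold change of 0.07 (SE 0.17, edgeR adjusted p = 0.987) that was -0.05 without control replicate 2. The 10 macrophage markers summed to 87.4, 155.2 and 162.7 CPM in the controls and 101.6, 179.7 and 195.0 CPM in the knockouts. Of 10 bone and cartilage markers 7 were in the table, without Bglap, Bglap2 and Mepe, and they summed to 24.3 to 33.6 CPM in the controls and 31.0 to 38.1 CPM in the knockouts. The macrophage sum was highest in knockout 3, as was Spp1, and the bone and cartilage sum in knockout 1, and their part in the Spp1 level was not tested.

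Heg1 encodes a membrane protein of endothelial junctions that is also listed for proprioceptors. It was at 9.18, 5.96 and 9.87 CPM across controls 1 to 3, against 9.96, 7.19 and 6.35 CPM across knockouts 1 to 3. The log2 fold change was -0.09 (SE 0.25, edgeR adjusted p = 0.987) and -0.08 (SE 0.18) with the block. Pairs 1 and 2 were higher in the knockout, at 0.12 and 0.27, and pair 3 was lower, at -0.63. The 10 endothelial markers summed to 144.2, 131.1 and 178.8 CPM in the controls and to 168.3 to 173.5 CPM in the knockouts, and their part in the Heg1 level was not tested. Heg1 was at -0.27 without control replicate 2.

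**Figure D3:**
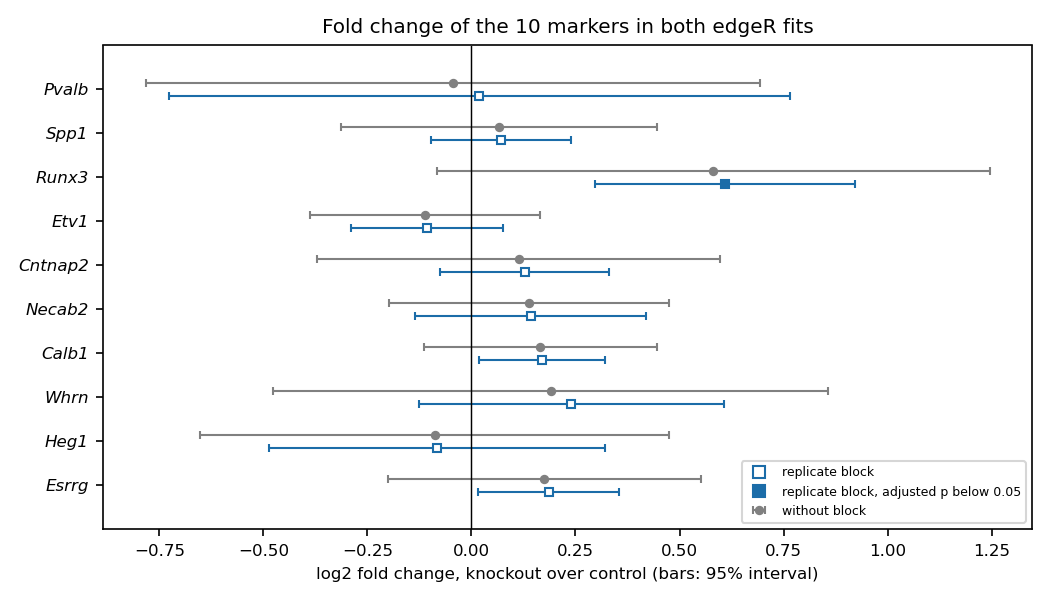
Log2 fold change of the 10 genes, knockout over control, in the edgeR fit without a block (grey circles) and with the replicate block (blue squares), with 95% intervals from the SE. Runx3, at 0.61 with the block, is the only filled square, which marks an adjusted p below 0.05.

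Across the 10 genes, 7 log2 fold changes were above 0 and 3 below, against 52.3% above 0 among all tested genes. Their median was 0.13 without the block and 0.13 with it, against 0.01 for all tested genes. Most other marker lists also had medians above 0 without the block. These were 0.10 for sensory neurons in general, 0.16 for satellite glia, 0.16 for endothelium and 0.17 for macrophages. Bone and cartilage had 0.33 and Schwann cells 0.04, while spinal cord and skeletal muscle had -0.37 and -4.09. The median of the 10 genes was -0.01 without control replicate 2. The knockout was higher in all 3 pairs for 3 genes (Runx3, Calb1 and Esrrg), against 21.4% of all tested genes, and lower in all 3 pairs for 0, against 20.6%. The median over the 10 genes of the pair log2 ratio was 0.15, 0.27 and 0.05 in pairs 1 to 3. Knockout and control values were fully separate in 0 of the 10 genes, while among all tested genes they did not overlap for 11.1% (5.02% higher and 6.12% lower in the knockout). The 10 genes were chosen with earlier results of these data known, so these comparisons with all tested genes are a description only.

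Control library 2 was the lowest of the 6 for 6 of the 10 genes, namely Spp1, Runx3, Cntnap2, Whrn, Heg1 and Esrrg, against 23.7% of all tested genes. It was the highest of the 6 for Pvalb. Over the 6 libraries 8 of the 45 gene pairs had a Pearson correlation of log2 CPM above 0.8, the highest being 0.95 for Cntnap2 with Whrn. Pvalb correlated negatively with 8 of the other 9 genes, from -0.88 with Whrn and -0.84 with Heg1 to -0.14 with Necab2 and -0.12 with Spp1, and at 0.65 with Calb1. These correlations rest on 6 libraries that share their other RNAs and are given as a description.

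**Figure D4:**
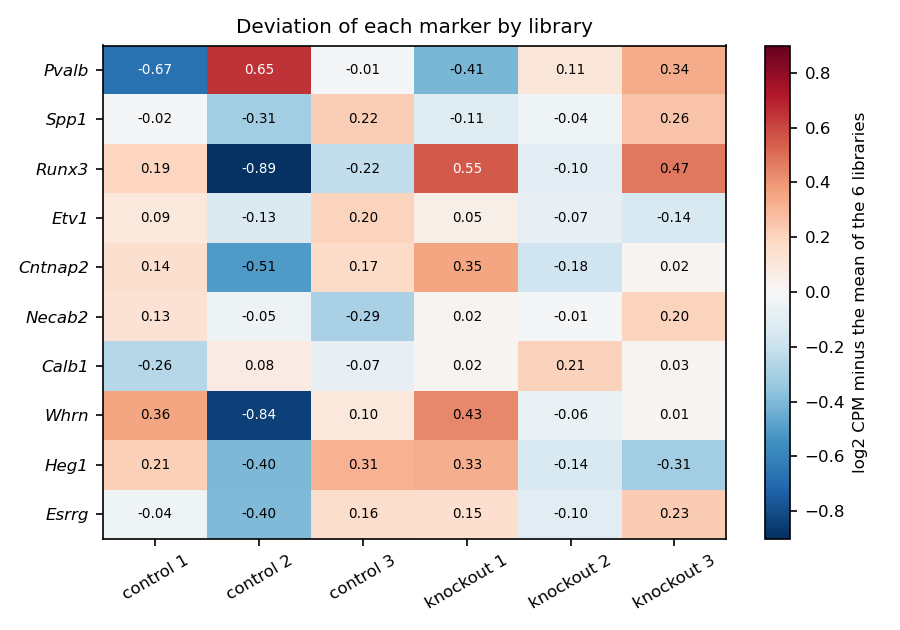
Deviation of each of the 10 genes in each library, as log2 CPM minus the mean of the 6 libraries (colour and printed value). Control library 2 is low for Runx3 (-0.89), Whrn (-0.84) and Cntnap2 (-0.51) and high for Pvalb (0.65), and control library 1 is lowest for Pvalb (-0.67).

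Transcript length also moved with the libraries. Among the 4832 tested genes with the shortest exon length (up to 3297 bases) the median deviation from the 6-library mean was -0.10 in control library 1, -0.09 in knockout library 1, 0.07 in control library 2 and 0.11 in knockout library 3 on the log2 scale. Among the 4832 longest (5841 bases or more) it was 0.10, 0.06, -0.06 and -0.07 in the same libraries. Pvalb, Spp1 and Necab2 are in the short class, and Etv1, Cntnap2, Whrn, Heg1 and Esrrg in the long class. Runx3 and Calb1 are in the middle class, where the median deviation was between -0.02 and 0.03 in every library. With offsets that remove the length trend from each library, Runx3 was at 0.59 without the block and 0.61 with it (edgeR adjusted p = 0.0337 with the block). Such offsets can move a gene of the middle class only little. Pvalb was at -0.13 and -0.09. The genes most like Pvalb over the 6 libraries, among 10146 with a mean of at least 10 CPM, were Acot13, Ccdc25 and Parl (Pearson correlation of log2 CPM 0.996, 0.994 and 0.990). For Spp1 they were Tm7sf3, Mrpl3 and Lcp2 (0.993, 0.982 and 0.974), and for Runx3 Plcd1, B630019K06Rik and Pelo (0.994, 0.993 and 0.993).

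Levels per kilobase of exon allow only a rough comparison between genes. The length takes in the exon positions of all annotated transcripts, 2 for Pvalb and 17 for Whrn, whether or not they were expressed. On this scale Pvalb (186.1 ± 83.0 CPM per kb, SD, n = 3 controls) and Spp1 (160.1 ± 29.2) were the highest and did not differ beyond their spread. Cntnap2 (19.7 ± 4.81) and Calb1 (15.9 ± 1.82) followed, also within their spread, and then Necab2 (8.29 ± 1.21), Esrrg (6.81 ± 1.30) and Etv1 (5.42 ± 0.617), where each overlapped its neighbour. Whrn (2.01 ± 0.775) and Runx3 (1.5 ± 0.542) overlapped each other, and Heg1 was the lowest, at 0.655 ± 0.164 CPM per kb. The knockout means came in the same order.

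Of 34 other genes of myelinated afferents, 26 were higher and 8 lower in the knockout without the block (52.3% of all tested genes were higher). Their median log2 fold change was 0.15. In edgeR 0 of them passed, and 3 had an unadjusted p under 0.05, against 5.48% of all tested genes. In the blocked fit 5 rose and 1 fell, against 1.24% and 2.36% of all tested genes. The whole list was chosen with earlier results of these data known. Comparisons of its counts with all tested genes are therefore a description and not an independent test. The knockout was higher in all 3 pairs for 15 of the 34 and lower in all 3 for 4, against 21.4% and 20.6% of all. Groups did not overlap for 3 of the 34, with the knockout higher in each, against 5.02% of all tested genes. In DESeq2 with the block 7 of the 34 passed, against 3.33% of all genes. They included Ret, a receptor tyrosine kinase gene (-0.24 in blocked edgeR, DESeq2 adjusted p = 0.0281), and Kcna1, a potassium channel gene (0.30, DESeq2 adjusted p = 0.0415), both named after their values were seen. Neither passed in blocked edgeR (adjusted p = 0.0749 and 0.103). Whole ganglia do not show in which cells Ret or Kcna1 differed. Control library 2 was the lowest of the 6 libraries for 23 of the 34, against 23.7% of all tested genes. The median of the 34 was 0.03 without control replicate 2 and also 0.03 without knockout replicate 1, and it was 0.17 to 0.24 with each of the other 4 libraries left out.

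Ntrk3 encodes TrkC, the receptor that proprioceptors depend on. It was at 36.9, 27.5 and 35.2 CPM across controls 1 to 3, against 43.4, 42.8 and 43.6 CPM across knockouts 1 to 3, and its groups did not overlap. It rose by 0.39 (SE 0.09, edgeR adjusted p = 0.0404), and it did not pass without the block (adjusted p = 0.839), in DESeq2 with the block (0.0912), or in the blocked edgeR fit without pair 1 (0.104) or pair 2 (0.0939). Without a block it was 0.38, and 0.27 when control replicate 2 was left out.

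Shox2, a homeobox gene of mechanoreceptors, was at 27.5, 17.1 and 26.7 CPM across controls 1 to 3, against 37.3, 25.4 and 36.6 CPM across knockouts 1 to 3. It rose by 0.49 (SE 0.09, edgeR adjusted p = 0.0106), and its exons overlap those of Rsrc1 on the other strand. Without a block Shox2 was at 0.48, and leaving out control replicate 2 lowered this to 0.30. Egr3, an early growth response factor, was at 5.88, 6.08 and 7.47 CPM across controls 1 to 3, against 11.7, 8.94 and 8.20 CPM across knockouts 1 to 3. Its groups did not overlap, but it did not pass in edgeR with the block (log2 fold change 0.56, SE 0.17, adjusted p = 0.109). In the blocked edgeR fit Egr3 passed without pair 3 (0.78, adjusted p = 0.0219). It did not pass without pair 1 (0.33, 0.543) or pair 2 (0.57, 0.0663). Without a block it was 0.57, and 0.54 without control replicate 2.

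Fxyd7, which encodes a small regulator of the sodium pump, was at 251.0, 146.9 and 287.0 CPM across controls 1 to 3, against 389.7, 267.4 and 392.0 CPM across knockouts 1 to 3. It rose by 0.65 (SE 0.08, edgeR adjusted p = 0.0015), the largest log2 fold change of the 34. Among the 7 genes of this list described here, it alone passed in blocked edgeR with each pair left out, at log2 fold changes of 0.55 to 0.75. Its call was lost with length-smoothed offsets and the block (0.52, edgeR adjusted p = 0.149), where Ntrk3, Nefh, Nefm, Shox2 and Piezo2 passed (adjusted p of 0.0140, 0.00847, 0.0250, 0.0114 and 0.00914). Its exon length of 693 bases puts it in the short class. Without control replicate 2 its log2 fold change was 0.38 in the fit without a block. The neurofilament genes Nefh and Nefm, which encode the axon skeleton of large neurons, rose by 0.40 (SE 0.07) and 0.40 (SE 0.09), with edgeR adjusted p-values of 0.0108 and 0.0347. Without pair 1 neither passed (0.143 and 0.279), and without control replicate 2, in the fit without a block, they were at 0.25 and 0.17. Exons of Nefm overlap those of Nefl on the other strand.

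Piezo2, which encodes the mechanically gated channel of touch and proprioception, was the 1 gene of this list that fell in blocked edgeR. It was at 541.4, 408.5 and 402.1 CPM across controls 1 to 3, against 412.5, 326.8 and 298.3 CPM across knockouts 1 to 3, lower in 3 of 3 pairs. It fell by 0.38 (SE 0.06, edgeR adjusted p = 0.00843), and the groups overlapped because knockout replicate 1 was above control replicates 2 and 3. Without pair 1 the adjusted p was 0.0978, and without control replicate 2 the unblocked log2 fold change was -0.44. Piezo2 is also made by other classes of mechanosensory neuron, and whole ganglia do not show which cells differed. Shox2 without pair 1 did not pass either (edgeR adjusted p = 0.0909).

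**Figure D5:**
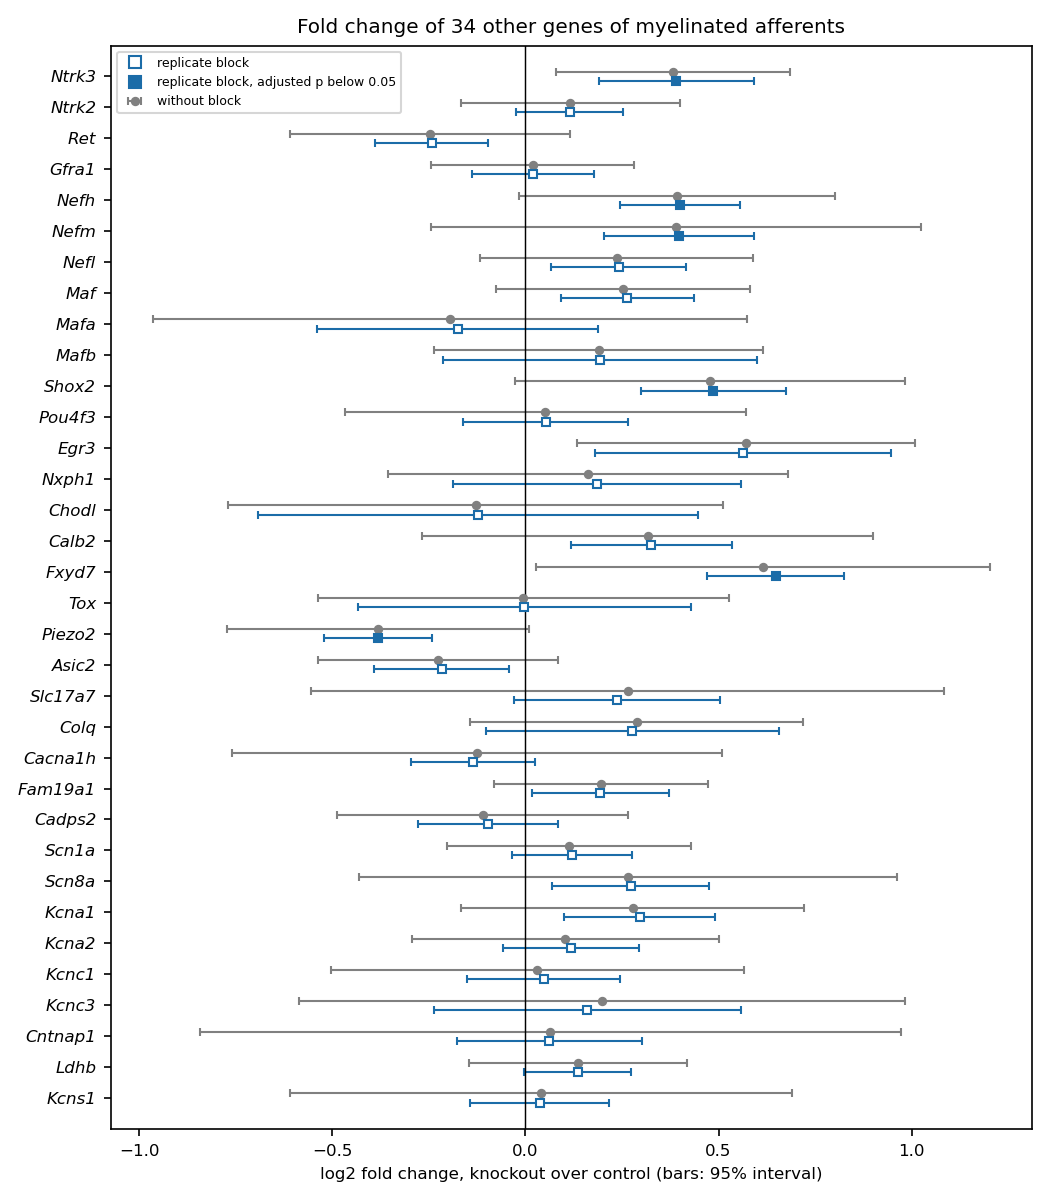
Log2 fold change of 34 other genes of myelinated afferents, knockout over control, without a block (grey circles) and with the replicate block (blue squares), with 95% intervals from the SE. Filled squares mark an adjusted p below 0.05 and are 6 in number, with Fxyd7 at 0.65 and Piezo2 at -0.38 as the extremes.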

How the data were processed

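Messenger RNA of dorsal root ganglia was sequenced in 3 control and 3 knockout libraries. The tools cutadapt, STAR and DESeq2 and the build mm10 are named, per the submitters' processing notes. The counting tool and strandedness are not stated there. The authors deposited raw counts per gene, per the file headers, and also a normalized signal, in which 1 size factor divides all counts of a library. The authors' log2 fold changes, p-values and false discovery rates are in the same table, per the file headers. No label says whether each library is a separate animal, and p-values cover only the variation among these libraries, which may be technical.

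The test was run on raw counts with edgeR 4.0.16 under R 4.3.3 (filterByExpr, TMM, robust quasi-likelihood fit across all 15043 genes, Benjamini-Hochberg adjustment, threshold 0.05). The SE is the log2 fold change divided by the root of the F statistic, and intervals use the fit's total degrees of freedom, prior plus residual. Alternatives were the replicate block, DESeq2 1.42.0, limma-voom (limma 3.58.1), other scalings, no filter, omissions of libraries or pairs, and length-smoothed offsets, added after seeing the data. Exon lengths were matched for 96.4% of tested genes and all 10 markers. The code was tested on simulated data. Deviations of same-numbered libraries from their group means correlated at 0.53, 0.30 and 0.17 over genes, which was taken as pairing, and those of control 2 and knockout 3 at 0.14, so pair 3 is the least certain. The labels do not say what a number shares.

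The markers and gene lists were chosen with earlier results of these data known. Named from the longer list were its genes called in either fit and the 6 of smallest p without the block. The neighbours of Pvalb, Spp1 and Runx3 were the 3 genes of highest correlation. Other marker lists covered Schwann cells (summed level 4717 to 6506 CPM over libraries), satellite glia (5666 to 7848 CPM) and spinal cord (37.3 to 96.1 CPM, highest in control library 2, without Chat and Mnx1).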

Additional observations from a re-analysis of the deposited data

How the results depend on the processing

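Without a block, 0 genes were called in edgeR under each scaling, without the filter, with length-smoothed offsets, in limma-voom and in all 6 omissions of 1 library. DESeq2 called 65. With the replicate block edgeR called 542, DESeq2 423 and edgeR with length-smoothed offsets 624, and omitting a pair gave 208, 819 and 897 (without pairs 1, 2 and 3). Of the 10 markers, edgeR with the block called 1 (Runx3), with or without length-smoothed offsets, and omitting a pair gave 0 to 1 (Pvalb without pair 2, Cntnap2 without pair 3). Of the 34 other genes 6, 7 and 7 were called in edgeR with the block, DESeq2 with the block and length-smoothed offsets with the block, and from 1 to 14 with a pair omitted (5 without pair 2). The median of the 10 markers ran from -0.0056 (without control 2) to 0.19 with a library omitted and from 0.09 to 0.20 with a pair omitted under the block. Signs changed mostly for values near 0. Pvalb was at 0.0214 in limma-voom, 0.0192 in edgeR with the block and 0.0233 in DESeq2 with the block, and Spp1 was at -0.0189 with length-smoothed offsets. With 1 library omitted the log2 fold change ran from -0.33 to 0.35 for Pvalb, -0.0548 to 0.20 for Spp1, -0.0687 to 0.23 for Cntnap2, -0.0779 to 0.43 for Whrn and -0.30 to 0.0494 for Heg1. With a pair omitted under the block it ran from -0.15 to 0.31 for Pvalb, -0.0226 to 0.14 for Spp1, -0.18 to 0.0058 for Etv1, -0.0349 to 0.26 for Necab2 and -0.24 to 0.19 for Heg1. The causes were not tested. Runx3 and Heg1 rest on the lowest counts of the 10 markers. The largest SE without the block was that of Pvalb (0.32, at 2041 to 4841 counts), against 0.29 for Runx3 and 0.25 for Heg1.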
